A study of Drosophila melanogaster with 4 samples.

Results

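The genes described here encode the proteins of the cytosolic ribosome that *Drosophila melanogaster* makes in a single form. They were taken by symbol as every gene named *RpL* or *RpS*, together with *sta*, which encodes the small subunit protein SA. Genes whose symbol ends in -like were left out, as were *RpS5a*, *RpS5b*, *RpS10a*, *RpS10b*, *RpS19a*, *RpS19b*, *RpL22*, *RpS28a* and *RpS28b*, which come as duplicated forms. The rule still keeps 5 pairs of near-identical copies, which are described on their own below. Of the 17023 genes in the count tables, 75 met this rule, 46 for the large and 29 for the small subunit. Of the 79 genes in the name table that meet the rule, *RpL19*, *RpL27A*, *RpL31* and *RpS12* matched no identifier in the tables and were not analysed here. The count tables held at least 10 reads over the 4 libraries for 74 of the 75 genes. The remaining gene, *RpL10Aa*, had 0 reads in every library.

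RNA-seq of poly(A) RNA from whole ovaries was available for 4 libraries. The *aramis* RNAi group (genotype UAS-Dicer2;NosGAL4 > aramis RNAi, n = 2) was compared with the *bam* RNAi group (genotype UAS-Dicer2;NosGAL4 > bam RNAi, n = 2), which the design names as the control for developmental stage. Females in both groups had been fattened on yeast, and ovaries were taken 1 to 3 days after eclosion. Both groups carried the *nanos* driver, which is active in germ cells, and *Dicer2*, which strengthens silencing. The somatic cells of these ovaries were thus not targeted and contribute to every value below. *aramis* is listed as *ais* in the annotation and encodes a DEAD-box RNA helicase, and *bam* promotes the differentiation of the stem cell daughter. Ovaries depleted of *bam* accumulate undifferentiated germ cells. In bulk RNA of this kind, fewer cells of a type and less RNA per cell cannot be told apart.

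A ribosome holds its proteins in fixed proportions, so cells coordinate the output of all of these genes. In flies, heterozygous loss of many of them gives the Minute phenotype of slow development and thin bristles. Their mRNAs are among the most abundant in growing cells. In vertebrates, they begin with a terminal oligopyrimidine tract through which the kinase TOR and the RNA-binding protein LARP1 control their translation, and the fly relatives of these regulators are *Tor* and *larp*. Such control acts on translation and need not alter mRNA levels, which are all that these libraries measure. In the ovary, the demand for new ribosomes is high in germline stem cells and their daughters.

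Reads assigned to genes ran from 12977013 to 16754980 per library. The targeted gene *ais* had normalised counts (reads divided by the DESeq2 size factor of the library) of 117 and 153 for *aramis* RNAi, beside 910 and 323 for *bam* RNAi. For *bam*, the values were 50.3 and 72.7 against 60.0 and 70.4, so the libraries labelled *bam* RNAi did not hold less *bam* mRNA than the others. These are levels in RNA of the whole ovary. Germline markers differed between the groups (below), so the values do not give *bam* mRNA per germ cell. Ovaries with the driver alone were not analysed here, so the silencing of *bam* itself has no control, and the group is named by its label throughout. Over all genes tested, 8.9% were higher and 7.04% lower in *aramis* RNAi at a DESeq2 adjusted p below 0.05, the shares against which marker counts are read. Of 17 germline markers tested, 14 were lower, and their summed level was 999 and 1109 CPM (counts scaled to the library total) against 3948 and 5267 CPM. Among the defining markers, *bgcn* fell by 2.45 and *otu* fell by 2.50 on the log2 scale. Of 11 markers of ovarian somatic cells, 1 was lower (*tj*, which fell by 1.78 on the log2 scale), and the median log2 fold change was -0.50. Their summed levels of 1656 and 2094 CPM against 2084 and 1652 CPM overlapped, but most of each sum in *aramis* RNAi was *Fas3*. Without *Fas3*, the sums were 345 and 436 CPM against 1039 and 563 CPM and did not overlap. Muscle markers summed to 44857 and 45792 CPM, against 22397 and 17828 CPM for *bam* RNAi, with 5 of 10 higher. Most of each sum in *aramis* RNAi was *Act57B*. Without *Act57B*, the sums were 15264 and 20082 CPM against 14415 and 5854.5 CPM, so replicate 1 of the 2 groups was close. Of 8 blood cell and fat body markers, 6 were higher. Gut markers, of which 3 of 9 tested were higher, summed to at most 80.9 CPM, the value of *aramis* RNAi replicate 2. The part of these shifts in the values of the ribosomal protein genes was not tested.

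The single-form ribosomal protein genes analysed here took up a large share of every library. The duplicated forms and the genes that matched no identifier are not in these values. They held 8.98% (95% Wilson interval 8.96 to 8.99) and 6.59% (6.58 to 6.60) of all gene counts in the *aramis* RNAi libraries. In the *bam* RNAi libraries they held 6.46% (6.45 to 6.48) and 8.79% (8.77 to 8.80). Wilson intervals here and below cover counting error only and leave out the spread between libraries. Reads copied by PCR are not separate molecules, so these intervals may be too narrow even for counting error. The mean share was 7.78% ± 1.69 (SD, n = 2) for *aramis* RNAi and 7.63% ± 1.64 (SD, n = 2) for *bam* RNAi. The groups overlapped, and the difference of 0.157 percentage points was smaller than the spread between replicates. Each group thus had a library with a high share and a library with a low share, and the high libraries were *aramis* RNAi replicate 1 and *bam* RNAi replicate 2. Among the 200 genes with the most reads, 41 were members of this single-form set. The median normalised count of the members was 14926 and 11110 for *aramis* RNAi, against 10108 and 10697 for *bam* RNAi, and did not overlap, whereas the share of all counts did. With 2 libraries on each side, an exact permutation p (two-sided) cannot go below 0.333, so tests come from models fitted across all genes.

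**Figure D1:**
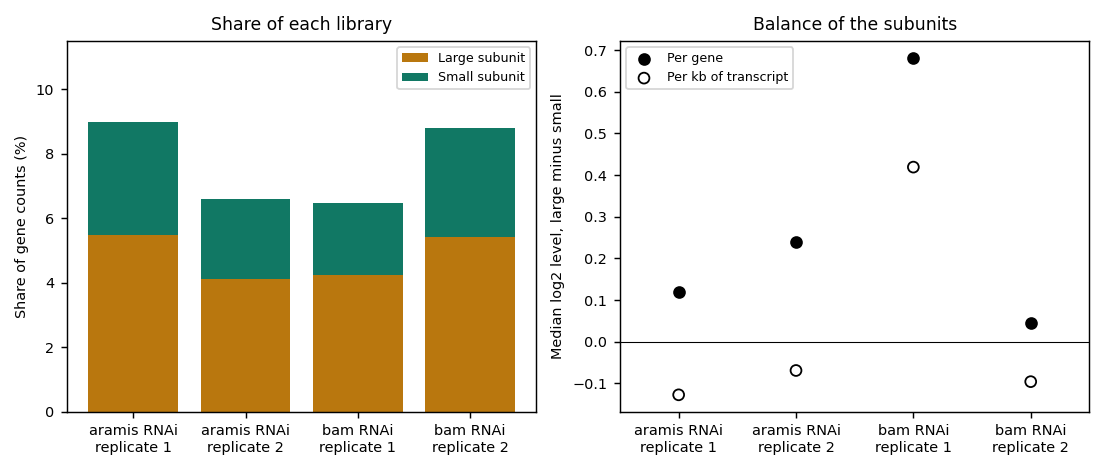
Share of all gene counts held by large and small subunit genes in each library (left, stacked bars, percent) and the median log2 normalised count of large minus small subunit genes (right, filled points per gene, open points per kb of transcript). The shares pair *aramis* RNAi replicate 1 with *bam* RNAi replicate 2, at 8.98% and 8.79%, and *bam* RNAi replicate 1 stands highest in the right panel, at 0.68.

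Levels were compared between genes per kb of the longest annotated transcript, since longer transcripts yield more reads. Averaged over the 4 libraries, the median was 13235 normalised counts per kb, and the quartiles were 9404 and 20515, a 2.18-fold range. The large and small subunit genes had medians of 15772 and 13076 per kb. The highest level belonged to *RpLP1*, at 58590 per kb. It encodes an acidic protein of the stalk, the flexible arm of the large subunit that engages translation factors. *RpS29*, which encodes a small zinc-binding protein of the small subunit head, was at 45921 per kb. *RpL10*, whose protein joins the large subunit late in its assembly, was at 42186. *RpLP2*, the partner of *RpLP1* in the stalk, followed at 40822, and *RpL15*, a core protein of the large subunit, at 40261.

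At the low end were mainly genes with a close copy elsewhere in the genome. *RpL37-2* had 232 normalised counts per kb, *RpS15Ab* had 1114, *RpL34a* had 2804 and *RpS14b* had 4820. *RpS26* was at 5756 per kb, but its longest annotated transcript of 1812 nt is long for this set, whose median length was 865 nt, and a length that is too long lowers a value per kb. *RpL5* has a longest transcript of 3835 nt, and its 8913 per kb is uncertain for the same reason. Of the 74 tested genes, 72 exceeded 1000 normalised counts in every library, the exceptions being *RpL37-2* and *RpS15Ab*.

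**Figure D2:**
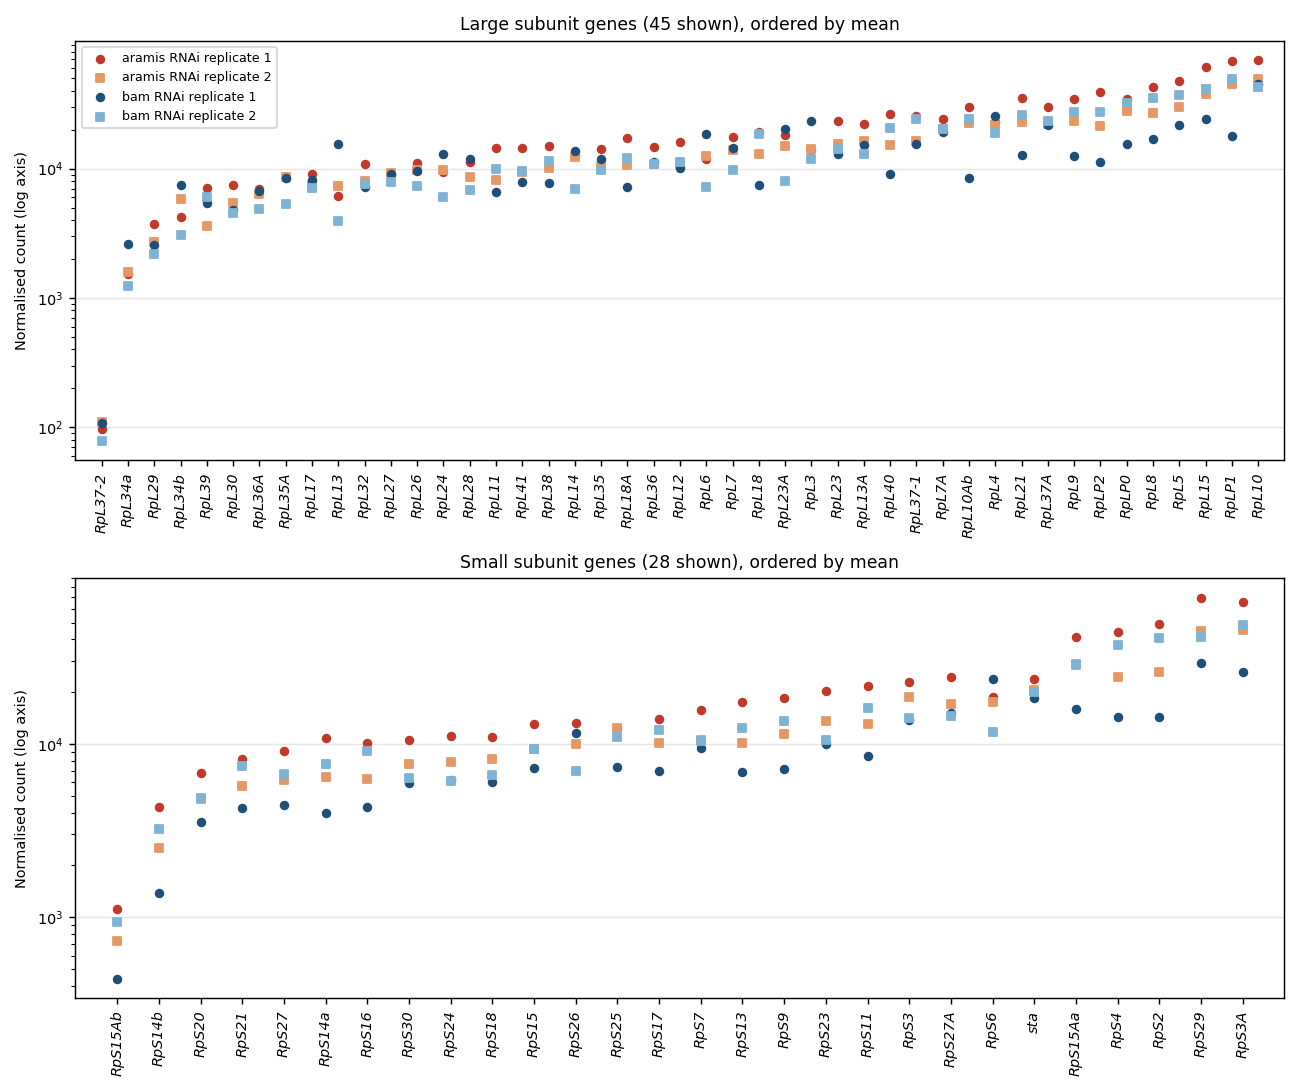
Normalised counts (log axis) of the 45 large subunit genes tested (top) and 28 of the 29 small subunit genes (bottom) in each of the 4 libraries, ordered by their mean. The median member lies between 10108 and 14926 in the 4 libraries, *RpL37-2* lies lowest, and the points of *bam* RNAi replicate 1 (dark blue) depart most from the others, above them for *RpL13* and below them for *RpLP1*.

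To determine whether single-form ribosomal protein genes differ between the *aramis* RNAi and *bam* RNAi groups, each gene was tested with DESeq2 across all 11128 genes tested. None of the 74 genes was past an adjusted p of 0.05 in either direction. The background was high, since 15.9% of all genes tested were past it, 8.9% higher and 7.04% lower in *aramis* RNAi. With total-count scaling this split turned to 4.88% higher and 14.5% lower, and 0 members were called. The smallest DESeq2 adjusted p of any member was 0.234, for *RpS23*. At an unadjusted p below 0.05, 0 of the 74 genes were past the limit in DESeq2, against 27.8% of all genes. The edgeR quasi-likelihood test gave 0 at an adjusted p below 0.05, against 5.74% of all genes higher and 4.74% lower, and 0 at an unadjusted p below 0.05, against 28.4%. A 4-fold limit, which the study's authors applied to bulk RNA-seq, was passed together with the adjusted p by 0 members and by 6.25% of all genes.

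Fold changes, given as *aramis* RNAi over *bam* RNAi throughout (of paired values below, the first pair is *aramis* RNAi), were small and clustered. On the log2 scale they ran from -0.53 for *RpL13* to 0.76 for *RpLP1*, with a median of 0.40 beside -0.09 for all genes tested. The middle 50% of the members lay between 0.21 and 0.52, while that of all genes lay between -0.86 and 0.74. In the 3041 genes averaging 1000 or more normalised counts, the quartiles were -0.45 and 0.78 and the median was 0.20. The log2 fold change was above 0 for 67 of the 74 members, or 90.5%, against 47.2% of all genes. This direction depended on the scaling. With total-count scaling, the median of all genes moved from -0.09 to -0.45, that of the members moved from 0.40 to 0.02, and 42 of 74 members were above 0, against 35.1% of all genes. With scaling to the germline markers, all 74 members were called higher, against 64.0% of all genes, and the medians moved to 2.54 and 2.01. Relative to the median gene, members were 0.49 higher with the DESeq2 size factors, 0.47 higher with total-count scaling and 0.53 higher with germline scaling. A change of scaling shifts all genes by nearly the same amount, so these values could hardly differ and are not separate results.

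**Figure D3:**
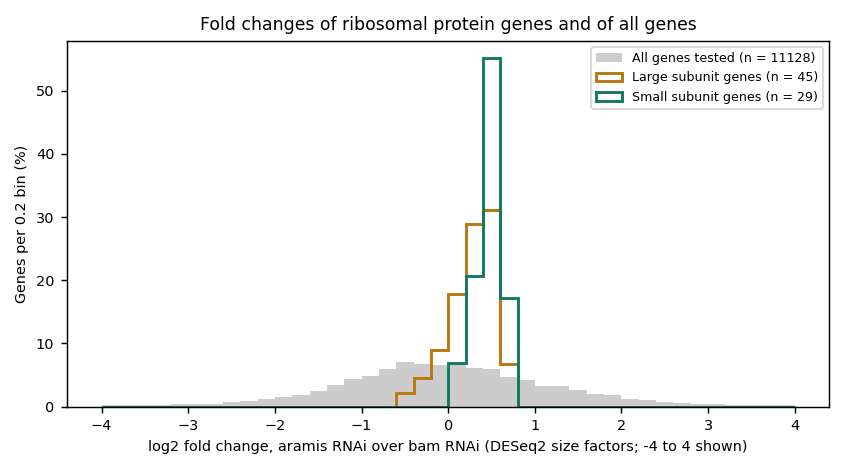
Distribution of log2 fold changes (x axis, *aramis* RNAi over *bam* RNAi, DESeq2 size factors) as the percent of genes per bin for all 11128 genes tested (grey), the 45 large subunit genes (brown line) and the 29 small subunit genes (green line). Members lie between -0.53 and 0.76, inside a far broader distribution.

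A p above the threshold does not bound a change, so the size of each change was tested directly. The test asks whether a change is smaller than a set limit in both directions. All 74 members had a change shown to be smaller than 4-fold (DESeq2 adjusted p of at most 0.0196, the value of *RpLP1*), against 48.3% of all genes tested. That background depends on the count filter. In the fit limited to genes with at least 10 counts in every library, it was 70.3%, and all 74 members passed. A share for genes as abundant as the members is not given here. A change smaller than 2-fold was shown for 0 members and for 0 of all 11128 genes, and the smallest adjusted p of a member was 0.441. These libraries thus did not bound any gene's change at 2-fold. The standard errors of the members ran from 0.393 to 0.599 on the log2 scale, and all 74 of the 95% intervals held 0. For 58 members, the interval reached above 1, and for 6 it reached below -1. Without *aramis* RNAi replicate 2, the 4-fold test passed for 0 members and 0 of all 10818 genes, and without *aramis* RNAi replicate 1 it passed for 66 members (16.5% of all genes). With the replicate number as a block it passed for 71 members (36.7% of all genes). With scaling to the germline markers it passed for 0 members (0.198% of all genes), and 69 were past the 4-fold limit.

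**Figure D4:**
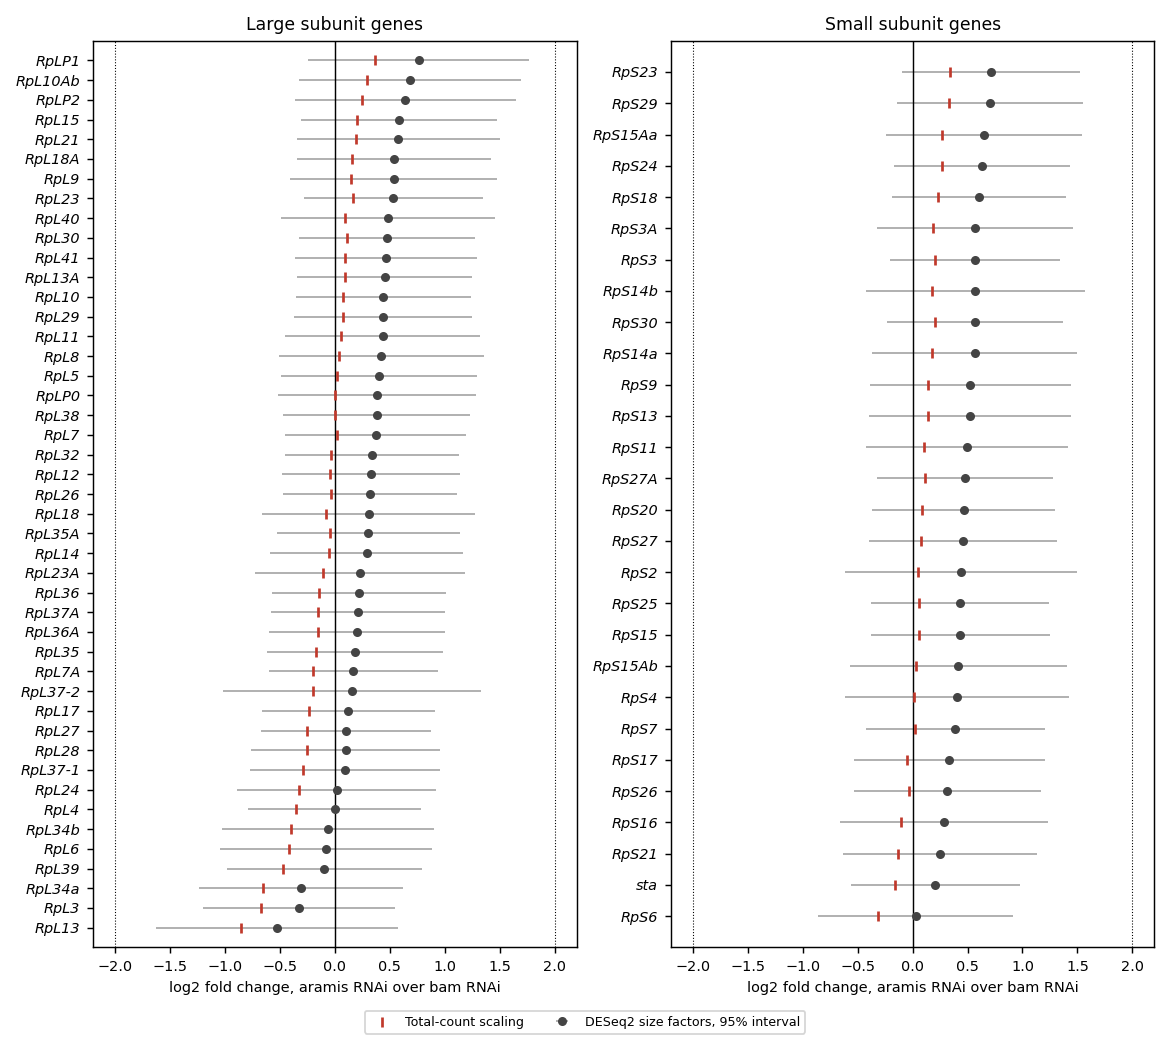
Log2 fold change of the 45 large and 28 of the 29 small subunit genes tested (black points, DESeq2 size factors, bars for the 95% interval) and its value with total-count scaling (red ticks), with the large subunit on the left and the small subunit on the right. Dotted lines mark the 4-fold limits at -2 and 2. Every interval shown spans 0 and lies within the dotted lines.

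The genes with the highest fold changes encode proteins of different parts of the ribosome. *RpLP1* (FBgn0002593; chromosome 2L, 419952 to 420864, plus strand, dm6; 2 exons) had 68298 and 44896 normalised counts for *aramis* RNAi, against 17758 and 49038 for *bam* RNAi. Only *bam* RNAi replicate 1 was low, and the groups overlapped. Its log2 estimate was 0.76 with an SE of 0.51 (DESeq2 adjusted p = 0.322). *RpS23* (FBgn0033912; chromosome 2R, 14215096 to 14216627, minus strand; 3 exons), whose protein lies at the decoding centre, had 20156 and 13491 against 10030 and 10526. Both *aramis* RNAi values lay above both *bam* RNAi values, but the *aramis* RNAi libraries differed from each other by more than the gap between the groups. The estimate was 0.71 on the log2 scale with an SE of 0.41 (DESeq2 adjusted p = 0.234). *RpS29* (FBgn0261599; chromosome 3R, 9778042 to 9779528, plus strand; 3 exons) showed the same order, with 69881 and 44812 against 29147 and 41128 (log2 0.71, SE 0.43, DESeq2 adjusted p = 0.263). *RpS29* and *RpL10Ab* each overlap a gene on the other strand, so their counts are less certain. *RpL10Ab* (FBgn0036213; chromosome 3L, 11822851 to 11824211, plus strand; 3 exons), which encodes the protein of the other stalk of the large subunit, had 29845 and 22405 against 8386 and 24154 (log2 0.68, SE 0.51). *RpS15Aa* (FBgn0010198; chromosome X, 13335637 to 13337705, minus strand; 2 exons) had 41607 and 28512 against 15835 and 28850 (log2 0.65, SE 0.45). For both of these genes, the groups overlapped, since *bam* RNAi replicate 2 was at the level of *aramis* RNAi replicate 2.

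The lowest fold changes all belonged to large subunit genes. *RpL13* (FBgn0011272; chromosome 2L, 9967313 to 9968645, plus strand; 3 exons) had 6106 and 7298 normalised counts, against 15410 and 3921 for *bam* RNAi. Both *aramis* RNAi values lay between the *bam* RNAi values, which differed from each other almost 4-fold. The estimate was -0.53 on the log2 scale with an SE of 0.56 (DESeq2 adjusted p = 0.562). *RpL3* (FBgn0020910; chromosome 3R, 11221894 to 11225173, plus strand; 6 exons), whose protein reaches toward the peptidyl transferase centre, had 13832 and 14124 against 23133 and 11926 (log2 -0.33, SE 0.45). *RpL6* (FBgn0039857; chromosome 3R, 31594792 to 31596204, minus strand; 2 exons) had 11961 and 12446 against 18615 and 7208 (log2 -0.08, SE 0.49). In all 3 genes the *aramis* RNAi libraries were close to each other and the *bam* RNAi libraries were far apart. *RpL34a* (FBgn0039406; chromosome 3R, 26058420 to 26059267, minus strand; 3 exons) had 1536 and 1575 against 2627 and 1228 (log2 -0.31, SE 0.47). *RpL39* (FBgn0023170; chromosome 2R, 24061853 to 24062431, minus strand; 3 exons), which encodes a very small protein of the exit tunnel, had 7057 and 3576 against 5378 and 6000 (log2 -0.10, SE 0.45). Here the *aramis* RNAi libraries were the uneven pair. *RpL39* overlaps *RpL12* on the other strand, and *RpL3* overlaps an antisense RNA gene.

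The stalk genes shared 1 low library. *RpLP0*, the base of the stalk, had 34365 and 27760 normalised counts, against 15538 and 31973 for *bam* RNAi. *RpLP2* had 38864 and 21224 against 11204 and 27335. As for *RpLP1*, *bam* RNAi replicate 1 was the lowest library for both genes, and *bam* RNAi replicate 2 lay between the *aramis* RNAi libraries. Their log2 fold changes were 0.39 (SE 0.46) and 0.64 (SE 0.51).

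*RpL5* and *RpL11* encode the proteins that bind 5S ribosomal RNA before it enters the large subunit. *RpL5* had 47941 and 29931 normalised counts, against 21694 and 37159 for *bam* RNAi. *RpL11* had 14301 and 8185 against 6639 and 10008. The order of the libraries was the same for both genes, with *aramis* RNAi replicate 1 the highest and *bam* RNAi replicate 1 the lowest. Their log2 fold changes of 0.40 (SE 0.45) and 0.43 (SE 0.45) differed by far less than their errors.

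*RpL40* and *RpS27A* encode fusions of ubiquitin with a ribosomal protein, 1 for each subunit. *RpL40* had 26369 and 15244 normalised counts, against 9124 and 20640 for *bam* RNAi, and the groups overlapped. *RpS27A* had 24318 and 16896 against 15111 and 14504, with both *aramis* RNAi libraries higher. Their log2 fold changes were 0.48 (SE 0.50) and 0.48 (SE 0.41), so a similar estimate came with unlike libraries. *RpL41*, which encodes the smallest protein of the large subunit, had 14515 and 9439 against 7826 and 9549 (log2 0.46, SE 0.42).

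*RpS6*, the small subunit protein that S6 kinase phosphorylates downstream of TOR, had the lowest fold change of its subunit. It had 18600 and 17533 normalised counts, against 23660 and 11737 for *bam* RNAi. The *aramis* RNAi values lay between the *bam* RNAi values, and the log2 estimate of 0.03 was far smaller than its SE of 0.45 (DESeq2 adjusted p = 0.973). *RpS3*, a protein of the mRNA entry channel, had 22644 and 18583 against 13685 and 14086, and its *aramis* RNAi values were the higher with DESeq2 and with total-count scaling. Its log2 estimate was 0.57 with an SE of 0.39 (DESeq2 adjusted p = 0.336). *RpS2*, its neighbour at the entry channel, had 49178 and 25801 against 14310 and 40876, the widest spread among the small subunit genes in *bam* RNAi (log2 0.44, SE 0.54). *sta* had 23767 and 20580 against 18424 and 19962 and the smallest standard error of all members (log2 0.21, SE 0.39).

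Libraries of the 2 groups were fully separated for few members. With the DESeq2 size factors, both *aramis* RNAi values lay above both *bam* RNAi values for 18 of 74 members (24.3%), against 27.4% of all genes tested, and below them for 0 members, against 30.3%. With total-count scaling, *RpS3* was the 1 member with both *aramis* RNAi values higher (18.7% of all genes). Another 6 members, named here after their values were seen, had both lower (42.1% of all genes): *RpL3*, *RpL4*, *RpL7A*, *RpL17*, *RpL27* and *RpL34a*. *RpL7A* was thus fully separated in opposite directions with the 2 scalings.

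The large and small subunits were compared next, since a ribosome holds their proteins in fixed proportions. The median log2 fold change was 0.32 for the 45 large subunit genes and 0.46 for the 29 small subunit genes. All 29 small subunit genes and 38 of the 45 large subunit genes were above 0. With total-count scaling, the medians were -0.04 and 0.09, so the large subunit turned direction. The medians differed by -0.15 (large minus small), less than the spread between libraries. In each library, the median log2 level of large minus small subunit genes was 0.12 and 0.24 for *aramis* RNAi, against 0.68 and 0.05 for *bam* RNAi. Only *bam* RNAi replicate 1 stood apart, and the groups overlapped. Without that library, the difference between subunit medians was 0.05 in the other direction. Per kb of transcript, the balance was -0.13 and -0.07, against 0.42 and -0.10. In reads, the ratio of large to small subunit counts was 1.56 and 1.65 against 1.89 and 1.62.

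The *bam* RNAi replicates differed from each other more than the groups did for many members. Of the 74 members, 22 (29.7%) differed more than 2-fold between the *bam* RNAi libraries, 8 higher in replicate 1 and 14 higher in replicate 2. In the 7686 genes that averaged 50 or more normalised counts and had a known length, the share was 25.3%. This is close to the share of the members, so they did not stand out in it. Between the *aramis* RNAi libraries, 0 members and 5.91% of those genes differed more than 2-fold. *RpL13* was higher in *bam* RNAi replicate 1 by 1.97 on the log2 scale, *RpL6* by 1.37, *RpL23A* by 1.32 and *RpL34b* by 1.27. At the other end, replicate 1 over replicate 2 gave log2 values of -1.53 for *RpL10Ab*, -1.51 for *RpS2*, -1.47 for *RpLP1* and -1.38 for *RpS4*. *RpL23A* and *RpS4* were named after their values were seen. Both sets mix proteins of unlike position in the ribosome. Genes of the small subunit were mostly on the low side, 24 of 29 being lower in *bam* RNAi replicate 1, while the large subunit was evenly split, with 22 of 45 lower.

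The *aramis* RNAi libraries differed from each other in the opposite sense. There, 63 of 74 members were higher in replicate 1, with a median log2 ratio of 0.49. Across the 74 members, the ratio of replicate 1 to 2 in *aramis* RNAi and that in *bam* RNAi had a Pearson's r of -0.791 and a Spearman's rho of -0.795. Members are not independent, since all points share the same 4 libraries, and the r was -0.533 over the 7686 genes above. Members that were relatively high in *bam* RNAi replicate 1 were thus relatively low in *aramis* RNAi replicate 1. Of the 74 members, 45 were higher in *aramis* RNAi replicate 1 and lower in *bam* RNAi replicate 1, and 10 showed the reverse of both. Levels of the members in *aramis* RNAi replicate 1 were closest to *bam* RNAi replicate 2 (r = 0.987 on log2 levels), a library of the other genotype, and *bam* RNAi replicate 1 was farthest from its own replicate (r = 0.827).

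**Figure D5:**
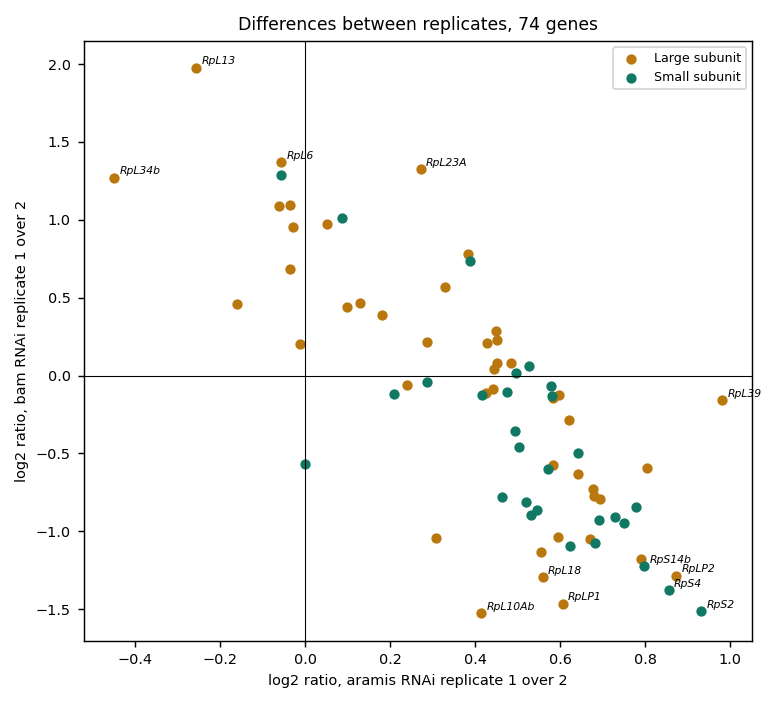
Log2 ratio of replicate 1 to replicate 2 in *aramis* RNAi (x axis) and in *bam* RNAi (y axis) for the 74 tested genes, by subunit. Points fall from *RpL13* at the upper left to *RpS2* at the lower right, with r = -0.791, and the y axis spans a wider range than the x axis.

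Transcript length moved with the replicates in all genes but hardly within this set. Over the 7686 genes, the Spearman's rho of length with the ratio of replicate 1 to 2 was -0.468 for the *aramis* RNAi pair and 0.313 for the *bam* RNAi pair. Over the 74 members, it was -0.143 and 0.084. Of the 75 genes, 72 had a longest transcript at or below 1400 nt, against a median of 1847 nt for all genes tested. In the 1050 genes with transcripts of 1000 nt or less, the median log2 ratio was 0.37 for the *aramis* RNAi pair and -0.30 for the other pair, beside 0.49 and -0.13 for the members. With offsets for length, the median log2 fold change of the members was 0.35 and 0 members were called, against 10% of all genes higher and 9.06% lower. How the libraries came to differ was not tested.

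Which members were called from fewer libraries depended on the library left out. Without *bam* RNAi replicate 2, DESeq2 called 20 members higher in *aramis* RNAi (27.0%, against 13.1% of all genes tested) and 1 lower (1.35%, against 11%). The 20 were led by *RpLP1* at 1.66 (DESeq2 adjusted p = 0.000161) and *RpL10Ab* at 1.63 (DESeq2 adjusted p = 9.58e-05), with 10 from each subunit, and the 1 lower gene was *RpL13* at -1.21 (DESeq2 adjusted p = 0.00390). Without *bam* RNAi replicate 1, a different set of 3 members was called higher (4.05%, against 10.4%), and 0 of them were among the 20. Among the 3, *RpL14* was at 0.86 and *RpL23A* at 1.04 on the log2 scale, both named after their values were seen. In each of these fits the lone *bam* RNAi library was taken to vary like the *aramis* RNAi libraries. Without *aramis* RNAi replicate 1, 0 members were called, but only 0.788% of all genes were higher and 0.955% lower. Without *aramis* RNAi replicate 2, 0 members were called beside 2.15% and 1.82%, so both counts are near the background. In these fits the median log2 fold change was 0.14 without replicate 1 and 0.66 without replicate 2. With libraries paired across numbers as a block, 6 members were called higher (8.11%, against 14.3% of all genes).

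Of the genes in the set, 10 belong to 5 pairs with near-identical copies, and reads may be split between copies in ways the counts do not show. *RpS14a* (chromosome X, 7933742 to 7934677) and *RpS14b* (chromosome X, 7934898 to 7935792) lie next to each other. *RpS14b* took 28.6% (95% Wilson interval 27.9 to 29.4) and 28.0% (27.0 to 29.0) of the pair's reads, against 25.7% (24.5 to 26.9) and 29.6% (28.8 to 30.4) for *bam* RNAi, and the groups overlapped. *RpL34a* took 26.5% (25.4 to 27.7) and 21.3% (20.4 to 22.3) of the reads it shares with *RpL34b* (chromosome 3R, 9400237 to 9401226), against 26.1% (25.2 to 27.0) and 28.5% (27.2 to 29.7). Here *aramis* RNAi replicate 2 was the low library. *RpS15Ab* (chromosome 2R, 10821676 to 10822399; 1 exon) took 2.62% (2.47 to 2.78) and 2.48% (2.31 to 2.68) of its pair, against 2.70% (2.46 to 2.97) and 3.16% (2.98 to 3.35), the *aramis* RNAi shares being the lower by less than the spread in *bam* RNAi. *RpL37-2* (chromosome 2R, 23100057 to 23100478; 1 exon) had 95 and 102 reads against 102 and 91, or at most 0.687% of its pair. The other copy, *RpL37-1* (chromosome X, 15137870 to 15139367), had 25697 and 16468 normalised counts against 15521 and 24075.

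*RpL10Aa* (chromosome 3R, 15037366 to 15038149; 1 exon) had 0 reads in all 4 libraries beside 7969 to 29065 reads of *RpL10Ab*. A count of 0 allows up to 3 reads, or 0.179 to 0.231 CPM in these libraries.

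The chromosomes gave similar medians, with no test made between them. The 75 genes lie on every major chromosome arm, with 16 on 2L, 17 on 2R, 13 on 3L, 18 on 3R, 10 on X and *RpS3A* alone on chromosome 4. Median log2 fold changes ran from 0.20 for the 10 genes on X to 0.44 for the 17 on 2R, and *RpS3A* was at 0.57 (SE 0.46). Small nucleolar RNA genes overlap 25 of the members, whose median of 0.39 was close to the 0.42 of the other 49 tested.

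Other genes of the pathway were examined to place these values. Of the duplicated ribosomal protein genes, 8 were tested, and 3 were lower in *aramis* RNAi and 0 higher at a DESeq2 adjusted p below 0.05, against 7.04% and 8.9% of all genes. The 3 were *RpS5b*, *RpS10a* and *RpS19b*, of which *RpS5b* and *RpS19b* are known for their expression in germ cells. *RpS19b* had 259 and 193 normalised counts, against 777 and 1249 for *bam* RNAi, and fell by 2.16 on the log2 scale (SE 0.47, DESeq2 adjusted p = 0.000163). Its more widely expressed copy *RpS19a* had 17018 and 11412 against 7128 and 11543 (log2 0.61, SE 0.44, DESeq2 adjusted p = 0.368), a value within the range of the single-form genes. *RpS5a* and *RpS28b* were at 0.55 and 0.51, also in that range.

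Genes for translation factors and for proteins whose vertebrate mRNAs share the oligopyrimidine tract gave 0 calls among 22 tested in DESeq2 and in edgeR, with 3 at an unadjusted p below 0.05 in DESeq2, against 27.8% of all genes. Their median log2 fold change was 0.15 with 14 above 0, and it turned to -0.21 with 7 above 0 under total-count scaling. *eEF2*, which drives translocation, had 156100 and 109100 normalised counts, against 76623 and 111370 for *bam* RNAi (log2 0.50, SE 0.43). *Rack1*, a protein bound to the small subunit, was at 0.43 (SE 0.45). Of 9 genes of the TOR and Larp pathway, *Thor* was the 1 called (8.9% of all genes higher). *Thor* encodes the protein that holds back the cap-binding factor eIF4E, and it had 6315 and 4004 normalised counts against 1051 and 1894. Both *aramis* RNAi values were the higher, with a rise of 1.81 on the log2 scale (SE 0.46, DESeq2 adjusted p = 0.00186). *larp* had 6581 and 8568 against 8395 and 4645, and its groups overlapped (log2 0.22, SE 0.45).

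Genes for ribosome assembly, whose products build the subunits from these proteins, lay on the other side of 0. Of 30 tested, 0 were above 0 and 7 were lower at a DESeq2 adjusted p below 0.05 (7.04% of all genes), with a median log2 fold change of -1.02, or -1.38 with total-count scaling and 1.03 with scaling to the germline markers, a turn in direction (the median of all genes was then 2.01). In edgeR, 4 were lower and 0 higher. The 7 were *Fib*, *nop5*, *Nop60B*, *Nopp140*, *Mat89Ba*, *Surf6* and the targeted gene *ais* itself. *Non1*, which acts in large subunit assembly, had 10895 and 12680 normalised counts against 16809 and 8707 (log2 -0.11, SE 0.45) and was not called. Of 70 genes for mitochondrial ribosomal proteins, 1 was lower and 0 were higher, against 7.04% and 8.9% of all genes. Their median was -0.44, or -0.82 with total-count scaling and 1.70 with germline scaling, a turn in direction. *mRpL12* was the lower gene, at -1.87 (SE 0.54, DESeq2 adjusted p = 0.00728).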

How the data were processed

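Poly(A) RNA of ovaries was sequenced in 2 *aramis* RNAi and 2 *bam* RNAi libraries, made with a directional kit. The authors deposited raw counts of reads per gene, 1 table per library, with no scaling. The submitters' processing notes name HISAT2 (version 2.1.0), featureCounts (version 1.4.6), DESeq2 (version 1.24.0) and the dm6 build. The strand setting is not given in the sources used here, so counts of overlapping genes are uncertain. Nothing says whether replicates came from separate dissections, so p-values measure only the spread between these samples, which may be technical.

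Symbols, positions and lengths came from Ensembl release 115 on dm6 coordinates and matched 16647 of 17023 identifiers. The others held 5.52% to 6.66% of the counts of a library. Genes with at least 10 counts over the 4 libraries were tested with DESeq2 (version 1.42.0), a tool the submitters' processing notes name. The Wald test was used, with size factors by median of ratios and genotype group the single term. Benjamini-Hochberg adjustment followed the default independent filtering, which left 10049 genes with an adjusted p. Genes filtered out were counted as not called. A second Wald test asked whether a change is smaller than 2-fold or 4-fold, adjusted over all genes tested with no such filtering. The first test and the 2-fold test were also run on simulated data, but the 4-fold test was not scored there. Values per group are mean ± SD, n = 2.

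Alternatives were edgeR (version 4.0.16), TMM, total-count and germline marker scaling, other count filters, no independent filtering, thinning to the smallest library, offsets for transcript length, the replicate number as a block, leaving out each library and leaving out the near-identical pairs. The crossed block, the block in edgeR and the alternatives to the 4-fold test were added after the data were seen. The members and lists were chosen with earlier results of these data known. Named members were the 5 highest and 5 lowest fold changes at a mean of at least 100, the 5 highest and lowest levels per kb, any at an unadjusted p below 0.05, the near-identical pairs and 13 genes with roles given singly. The values of 1 member are not reported here by name, though it is in every count and median.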

Additional observations from a re-analysis of the deposited data

How the results depend on the processing

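No member was called in either direction with edgeR, TMM or total-count scaling, the other count filters, no independent filtering, thinning, length offsets, the replicate number as a block (DESeq2 or edgeR), or without the near-identical pairs. Over these fits, the share of all genes called ran from 1.72% to 11.4% higher and from 1.72% to 14.5% lower. It was lowest in edgeR with the block, where 0 members is near the background. Scaling mattered most. With total-count scaling, the median log2 fold change was 0.022 over all members, -0.041 for the large subunit (a turn in direction) and 0.090 for the small subunit, and 42 members were above 0. With scaling to the germline markers, where the median of all genes was 2.01, all 74 members were called higher (64.0% of all genes), 69 of them over 4-fold. The medians were 2.54 for all members, 2.43 for the large and 2.62 for the small subunit, and 0 members had a change shown to be under 4-fold (0.198% of all genes). In all, 7 members turned direction there. The 6 among the members named by rule were *RpL13* (1.42), *RpL3* (1.69), *RpL34a* (1.70), *RpL39* (2.03), *RpL6* (1.91) and *RpL34b* (1.92). The members were 0.53 above the median gene with that scaling, beside 0.49 with the DESeq2 size factors. Scaling can hardly move this gap, since it shifts all genes nearly alike.

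Leaving out 1 library gave between 0 and 20 members called higher, between 0 and 1 called lower, medians from 0.14 to 0.66 over all members, from 0.12 to 0.54 for the large and from 0.16 to 0.74 for the small subunit, differences between subunits from -0.417 to 0.052, from 56 to 69 members above 0 and from 0 to 74 members with a change shown to be under 4-fold. The highest count of calls came without *bam* RNAi replicate 2, and the turn in the difference between subunits came without *bam* RNAi replicate 1. The share of counts ran from 6.59% to 8.98% in *aramis* RNAi and from 6.46% to 8.79% in *bam* RNAi.

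Labels do not say that replicate numbers mark samples handled together. Deviations of same-numbered libraries had a correlation of -0.201 over all genes tested. It was -0.545 over genes averaging at least 50 normalised counts and -0.791 over the members, so same-numbered libraries deviated in opposite directions. Under the replicate block, the median was 0.42, 0 members were called and 71 had a change shown to be under 4-fold (36.7% of all genes), while all genes called fell from 1773 to 715. With the pairing crossed, 6 members were called higher (14.3% of all genes) and 0 lower. Over all genes, 1773 were called with DESeq2, beside 1167 with edgeR, 382 with edgeR and the block, 2968 with the pairing crossed and 7152 with germline marker scaling. Leaving out 1 library gave from 188 to 2580. The test for a change under 4-fold was not run in edgeR. With 2 libraries a group, standard errors near 0.445 limit what a single gene can show.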
